A study of Mus musculus with 16 samples.

Results

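The 3 cytochrome P450 genes Cyp2b9, Cyp2b13 and Cyp2b10, and the nuclear receptor genes Nr1i3 (CAR), Nr1i2 (PXR) and Rxra (RXR alpha), were followed through 16 mouse liver RNA-seq libraries. They are 6 of 23258 genes in the count table, taken by gene name, and were chosen by their CPM on HFD and chow and the diet fold changes, which were already known, so diet values of these 6 genes are a description without a test. All livers came from C57BL/6 mice. The groups were 5 miR-33 Liver knockout livers on HFD (HFD KO), 4 Wildtype livers on HFD (HFD WT), 4 miR-33 Liver knockout livers on Chow diet (chow KO) and 3 Wildtype livers on Chow diet (chow WT), where HFD is a high-fat diet. The name of the deposited table speaks of Alb-Cre, a Cre recombinase driven by the albumin promoter, which is active in hepatocytes. The labels do not say which alleles the Wildtype mice carried, nor age, sex, time on diet or batch. In the library titles the HFD and the chow libraries carry separate runs of numbers. Diet can therefore not be told apart from whatever that numbering follows, here and in all diet comparisons below. Nothing in them says that libraries of a group came from separate mice, so p-values measure the spread between these libraries, which may be technical. miR-33 itself was not analysed here.

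Library totals ran from 20993930 to 29469645 estimated counts in HFD KO, 16149911 to 25823475 in HFD WT, 15888436 to 26821573 in chow KO and 17502937 to 22902669 in chow WT. Levels are given as CPM, estimated counts scaled to library size with TMM. All 6 genes passed the filter on low counts, with 16830 genes in all. HFD KO library 1 stood apart from its group in genes that differ between the sexes, as described further on, and in macrophage markers.

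CYP2B enzymes sit in the endoplasmic reticulum of hepatocytes, where they oxidise drugs, steroids and other lipophilic compounds. CAR and PXR sense such compounds and bile acids, pair with RXR alpha and bind repeats of the AGGTCA hexamer near their target genes. Cyp2b10 is the textbook CAR target in mouse liver, while Cyp2b9 and Cyp2b13 are known as female-biased genes that growth hormone signalling and HNF4 alpha hold low in male liver.

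The 3 Cyp2b genes lie in the same gene cluster on chromosome 7, all on the plus strand. In GENCODE M21 on mm10, Cyp2b10 (ENSMUSG00000030483.14) spans chr7:25897620-25926624, Cyp2b13 (ENSMUSG00000040583.8) chr7:26061497-26096197 and Cyp2b9 (ENSMUSG00000040660.6) chr7:26173411-26210661. Nr1i3 (ENSMUSG00000005677.14) lies at chr1:171213970-171220701 on the plus strand, Nr1i2 (ENSMUSG00000022809.4) at chr16:38248323-38294824 on the minus strand and Rxra (ENSMUSG00000015846.14) at chr2:27676440-27762957 on the plus strand. The coding sequences of Cyp2b9 and Cyp2b13, of 1476 bases each, were identical at 92.7% of aligned positions, against 86.2% for Cyp2b9 with Cyp2b10 and 87.2% for Cyp2b10 with Cyp2b13. The promoters, shown because the 3 genes differed in how far apart the diets lay, are the RefSeq sequences on GRCm38.p6 from 250 bases before to 50 bases after each start. Those of Cyp2b9 (chr7:26173159-26173458) and Cyp2b13 (chr7:26061245-26061544) carry in capitals the bases at which they differ from each other. That of Cyp2b10 (chr7:25897408-25897707) carries in capitals the bases that differ from Cyp2b9 or have no partner in it.
Cyp2b9: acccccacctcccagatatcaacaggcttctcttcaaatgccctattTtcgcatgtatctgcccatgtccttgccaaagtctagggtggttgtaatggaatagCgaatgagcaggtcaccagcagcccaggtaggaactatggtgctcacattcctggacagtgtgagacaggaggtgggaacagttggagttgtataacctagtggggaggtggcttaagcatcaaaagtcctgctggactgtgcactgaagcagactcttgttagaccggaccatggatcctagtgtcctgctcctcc
Cyp2b13: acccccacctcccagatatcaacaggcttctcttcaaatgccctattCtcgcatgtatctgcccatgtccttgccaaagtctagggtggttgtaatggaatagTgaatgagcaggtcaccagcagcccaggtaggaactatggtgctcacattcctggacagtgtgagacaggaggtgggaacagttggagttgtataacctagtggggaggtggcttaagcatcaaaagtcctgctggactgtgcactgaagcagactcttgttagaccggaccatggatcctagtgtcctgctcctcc
Cyp2b10: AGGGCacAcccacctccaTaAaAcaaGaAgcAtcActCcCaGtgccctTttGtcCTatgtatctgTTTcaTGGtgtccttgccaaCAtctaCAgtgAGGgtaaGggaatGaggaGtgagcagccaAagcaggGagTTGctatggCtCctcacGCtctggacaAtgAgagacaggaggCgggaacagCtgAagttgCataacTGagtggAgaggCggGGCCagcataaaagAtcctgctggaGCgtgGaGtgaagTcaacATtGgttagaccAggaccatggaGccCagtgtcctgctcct
Cyp2b9 and Cyp2b13 were identical at 298 of 300 promoter bases (99.3%). The substitutions, with Cyp2b9 given before Cyp2b13 and positions counted from 1 at the 5′ end, were T48C and C104T. Cyp2b9 and Cyp2b10 were identical at 229 of 314 aligned positions (72.9%).

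Both strands of these windows were searched for short motifs. The nuclear receptor hexamer AGGTCA was found 1 time in Cyp2b9 and 1 time in Cyp2b13, 138 bases before the start in both, and was not found in the windows of Cyp2b10, Nr1i3, Nr1i2 or Rxra. It occurred in 16% of 27025 RefSeq promoters of the same length. The AGTTCA hexamer (14% of promoters) and direct repeats of either hexamer spaced by 4 bases (0.0111% for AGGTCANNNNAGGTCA, 0.0148% for AGTTCANNNNAGTTCA and 0% for the mixed orders) were in none of the 6 windows. The same held for the STAT5 motif TTCNNNGAA (8.47%) and for TATAAA (14.2%). CCAAT, found in 37.9% of promoters, matched 1 time in Cyp2b10, on the minus strand, and 2 times in Nr1i2. A match here is a match of letters and says nothing of binding. The direct repeats spaced by 4 bases were too rare among promoters for their absence to be informative. Inexact repeats and sequence outside these windows were not searched. Whether any of the 6 genes has a CAR or PXR site was therefore not tested.

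Cyp2b9 was the most abundant of the 3 Cyp2b transcripts in all 16 libraries, and its level was far higher on HFD in both genotypes. It had 63.1, 254, 212, 191 and 208 CPM in HFD KO, 238, 176.5, 187 and 175 CPM in HFD WT, 8.75, 16.8, 23.8 and 2.47 CPM in chow KO, and 9.78, 3.14 and 15.3 CPM in chow WT. Every HFD library lay above every chow library, and HFD KO library 1 was the lowest of its group. Means were 186 ± 72.2 CPM in HFD KO (SD, n = 5), 194 ± 29.4 CPM in HFD WT (n = 4), 13 ± 9.31 CPM in chow KO (n = 4) and 9.40 ± 6.07 CPM in chow WT (n = 3). The fitted log2 difference of HFD over chow was 3.86 ± 0.63 (SE, 14.5-fold) in KO and 4.37 ± 0.75 (20.7-fold) in WT. Without HFD KO library 1 the KO value was 4.10. In bulk liver, fewer cells of a type and less RNA per cell cannot be told apart, here and in what follows.

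Cyp2b13, the neighbour with the near-identical promoter, was close to undetected on chow and present in every HFD liver. It had 17.3, 60.7, 33.6, 44.3 and 21.1 CPM in HFD KO, 31.4, 26.8, 32.3 and 28.8 CPM in HFD WT, 0.109, 0.215, 0 and 0.0442 CPM in chow KO, and 0.0470, 0 and 0.296 CPM in chow WT. The diets did not overlap in either genotype, and 1 chow library of each genotype held no count at all. Means were 35.4 ± 17.7 CPM in HFD KO (SD, n = 5), 29.8 ± 2.52 CPM in HFD WT (n = 4), 0.0921 ± 0.0935 CPM in chow KO (n = 4) and 0.114 ± 0.159 CPM in chow WT (n = 3). Summed over libraries, 5168 counts in HFD KO stood against 8 counts in chow KO, a ratio of CPM of 355 (95% interval 180 to 823, counting error only). In WT, 2902 counts on HFD stood against 6 counts on chow, a ratio of 275 (126 to 749). The fitted log2 differences were 8.37 ± 0.61 (SE) in KO and 8.03 ± 0.70 in WT, and at so few chow counts they depend on the prior count. They were 9.21 in KO without chow KO library 2 and 9.90 in WT without chow WT library 3.

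Cyp2b10 differed from both neighbours: it was low everywhere and its diet groups overlapped. It had 1.26, 3.30, 0.850, 1.33 and 0.364 CPM in HFD KO, 0.726, 0.835, 3.12 and 1.33 CPM in HFD WT, 1.74, 0.215, 0.850 and 0.353 CPM in chow KO, and 1.55, 0.0582 and 1.54 CPM in chow WT. No group stood above the others, and libraries of 1 group differed as much as the groups did. Means were 1.42 ± 1.12 CPM in HFD KO (SD, n = 5), 1.5 ± 1.11 CPM in HFD WT (n = 4), 0.789 ± 0.689 CPM in chow KO (n = 4) and 1.05 ± 0.859 CPM in chow WT (n = 3). The fitted log2 difference of HFD over chow was 0.89 ± 0.78 (SE) in KO and 0.49 ± 0.86 in WT. Leaving out 1 library at a time gave 0.3 (without HFD KO library 2) to 1.69 (without chow KO library 1) in KO and -0.16 (without HFD WT library 3) to 0.90 (without chow WT library 1) in WT.

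**Figure D1:**
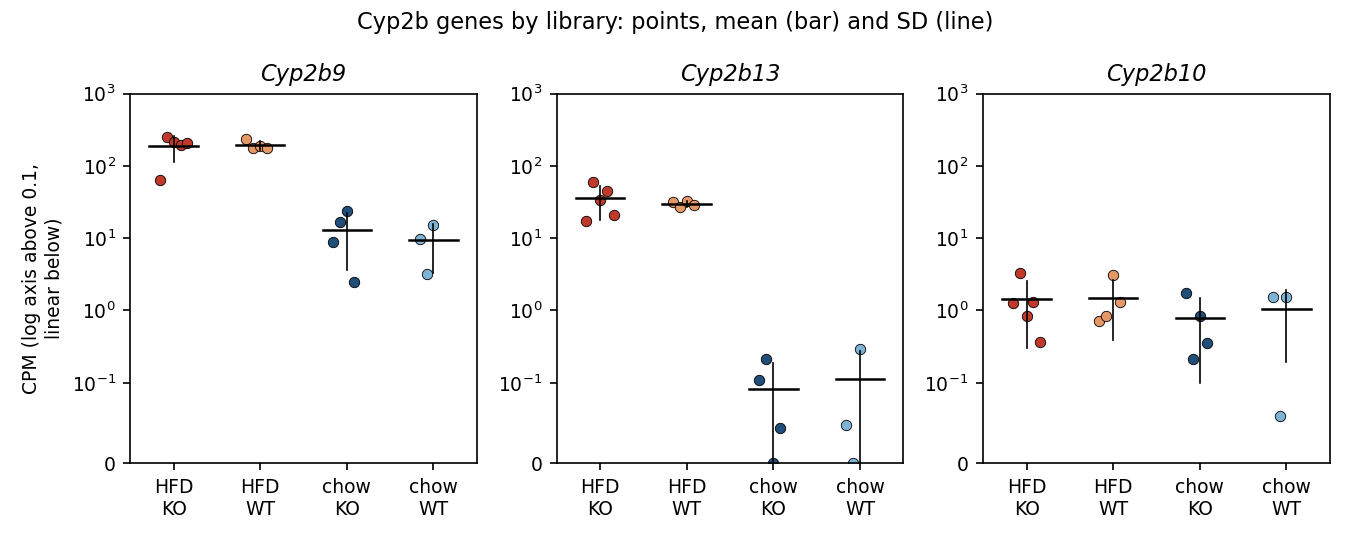
CPM of Cyp2b9, Cyp2b13 and Cyp2b10 in each of the 16 libraries on a log axis, by diet and genotype, with group means. For Cyp2b9 and Cyp2b13 every HFD library lies above every chow library, while the Cyp2b10 groups overlap.

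The makeup of the Cyp2b transcripts also differed between diets. Their summed level was 81.7 to 318 CPM in HFD KO, 204 to 270 in HFD WT, 2.87 to 24.6 in chow KO and 3.2 to 17.1 in chow WT. Cyp2b9 gave 77.3 to 90.7% of the summed Cyp2b counts in HFD KO, 84.1 to 88.1% in HFD WT, 82.8 to 97.6% in chow KO and 86.0 to 98.3% in chow WT. Cyp2b13 gave 9.19 to 21.2% in HFD KO, 11.7 to 14.5% in HFD WT, 0 to 1.54% in chow KO and 0 to 1.74% in chow WT, so its share was larger in every HFD library than in every chow library. Cyp2b10 gave 0.154 to 1.54% in HFD KO, 0.264 to 1.40% in HFD WT, 1.15 to 16.2% in chow KO and 1.68 to 13.6% in chow WT. For each Cyp2b13 count there were 3.65 to 9.86 Cyp2b9 counts in HFD KO and 5.8 to 7.55 in HFD WT. On chow the ratio was 56 to 80.5 in the 3 KO libraries and 51.4 to 206 in the 2 WT libraries in which Cyp2b13 was counted. The transcripts have nearly equal lengths, 1876 bases for Cyp2b9, 1875 for Cyp2b13 and 1822 for Cyp2b10. Because the genes resemble each other, the counting could split reads between them. Of 75-base windows along the transcript, 5.16% in Cyp2b9, 16.4% in Cyp2b13 and 3.32% in Cyp2b10 also occurred in another annotated gene. The protocols in the labels leave the read length in doubt, and of 45-base windows 13.4% in Cyp2b9, 29.7% in Cyp2b13 and 12.6% in Cyp2b10 were shared, which makes the lower Cyp2b values uncertain.

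The CAR gene Nr1i3 was lower on HFD in both genotypes. It had 154, 155, 134, 115 and 111 CPM in HFD KO, 147.5, 102, 135 and 105 CPM in HFD WT, 295, 255, 319 and 269 CPM in chow KO, and 303, 238 and 234 CPM in chow WT. The highest HFD library was below the lowest chow library. Means were 134 ± 20.6 CPM in HFD KO (SD, n = 5), 123 ± 22.3 CPM in HFD WT (n = 4), 285 ± 28.2 CPM in chow KO (n = 4) and 258 ± 38.5 CPM in chow WT (n = 3). The log2 difference of HFD over chow was -1.09 ± 0.13 (SE, 2.13-fold lower) in KO and -1.08 ± 0.14 (2.11-fold lower) in WT.

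Rxra, which encodes the dimer partner of CAR and PXR, was also lower on HFD, by a smaller factor. It had 598, 476, 462, 511 and 496 CPM in HFD KO, 518, 464, 528 and 474 CPM in HFD WT, 776, 730, 749 and 815 CPM in chow KO, and 763, 689 and 737 CPM in chow WT. The diets did not overlap, and HFD KO library 1 was the highest of the HFD libraries. Means were 509 ± 53.4 CPM in HFD KO (SD, n = 5), 496 ± 31.7 CPM in HFD WT (n = 4), 767 ± 36.9 CPM in chow KO (n = 4) and 729 ± 37.4 CPM in chow WT (n = 3). The log2 difference of HFD over chow was -0.59 ± 0.08 (SE, 1.51-fold lower) in KO and -0.56 ± 0.09 (1.47-fold lower) in WT.

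The PXR gene Nr1i2 had the smallest log2 difference between diets of the 6 genes. It had 78.0, 72.4, 80.2, 95.1 and 76.9 CPM in HFD KO, 80.4, 81.4, 93.1 and 78.3 CPM in HFD WT, 99.9, 97.1, 105 and 82.0 CPM in chow KO, and 101, 86.4 and 94.7 CPM in chow WT. The HFD and chow libraries overlapped in both genotypes. Means were 80.5 ± 8.63 CPM in HFD KO (SD, n = 5), 83.3 ± 6.64 CPM in HFD WT (n = 4), 96.1 ± 10 CPM in chow KO (n = 4) and 94.1 ± 7.5 CPM in chow WT (n = 3). The log2 difference of HFD over chow was -0.25 ± 0.09 (SE) in KO and -0.18 ± 0.10 in WT.

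**Figure D2:**
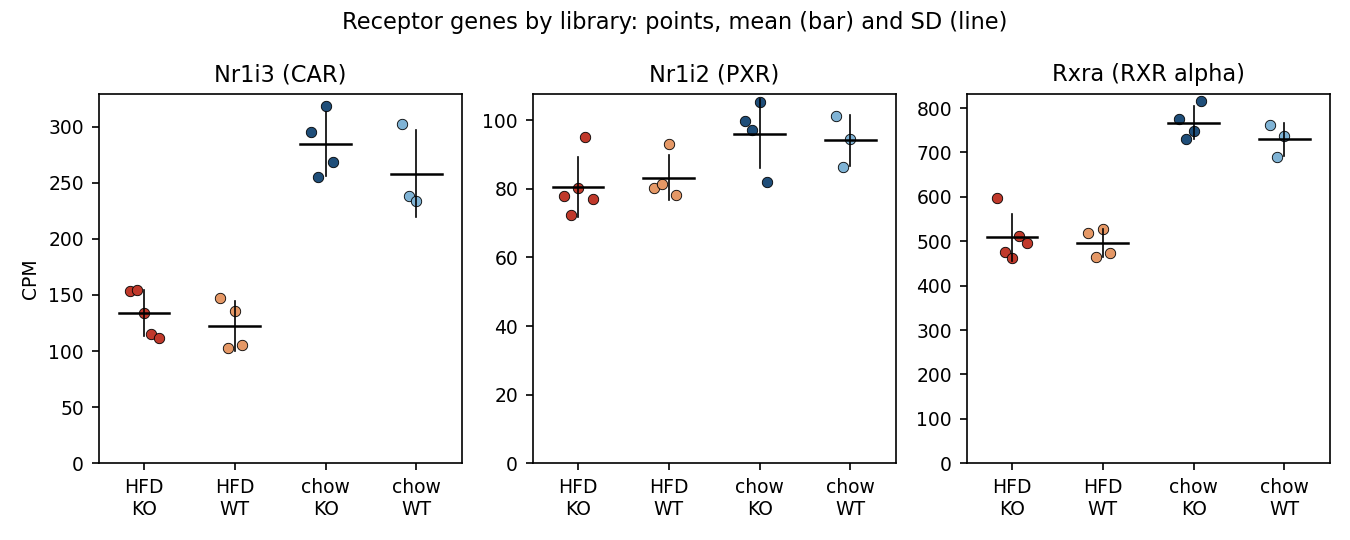
CPM of Nr1i3, Nr1i2 and Rxra in each of the 16 libraries, by diet and genotype, with group means. Nr1i3 and Rxra are lower in every HFD library than in every chow library, and the Nr1i2 groups overlap.

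In both genotypes the diets did not overlap for 4 of the 6 genes, with Cyp2b9 and Cyp2b13 higher and Nr1i3 and Rxra lower on HFD. Over all genes tested, 26.5% did not overlap between diets in KO (13.5% higher and 13% lower) and 36% in WT (18.3% higher and 17.7% lower). Since the genes were picked for this contrast, nothing is read from the difference. The coefficient of variation within a group was 4.8 to 18.2% for the 3 receptors, and 8.43 to 139% for the 3 Cyp2b genes.

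Scaled to the length of the transcript with the longest coding sequence, the order of the 6 genes also differed between diets. For Nr1i3 this transcript has 1414 bases, while its longest annotated 3′ UTR alone has 1983 bases, so a longer transcript is annotated. The place of Nr1i3 beside Rxra and Cyp2b9 depends on that choice. On HFD, Cyp2b9 (98.9 CPM per kb in HFD KO and 104 in HFD WT), Rxra (104 and 101) and Nr1i3 (94.6 and 86.7) overlapped in their length-scaled levels. Nr1i2 (31.5 and 32.6) and Cyp2b13 (18.9 and 15.9) followed, and Cyp2b10 (0.78 and 0.824) was lowest. On chow, at these lengths, Nr1i3 led with 201 CPM per kb in chow KO and 183 in chow WT. Rxra followed with 156 and 149, and Nr1i2 with 37.6 and 36.9. Cyp2b9 had 6.91 CPM per kb in chow KO and 5.01 in chow WT, Cyp2b10 0.433 and 0.576, and Cyp2b13 0.0491 and 0.061. Cyp2b13 thus stood above Cyp2b10 on HFD, and its mean was below that of Cyp2b10 on chow.

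Markers of several cell types also differed between diets. Of 16 hepatocyte markers, 8 fell and 0 rose on HFD in KO, and 10 fell and 0 rose in WT. Their summed level was 89400 to 111000 CPM in HFD KO, 91100 to 109000 in HFD WT, 124000 to 135000 in chow KO and 123000 to 131000 in chow WT. Of 16 Kupffer cell and macrophage markers, 8 rose in KO and 13 in WT, with sums of 425 to 784 CPM in HFD KO, 438 to 806 in HFD WT, 318 to 373 in chow KO and 176 to 342 in chow WT. The 784 CPM was HFD KO library 1, and the other HFD KO libraries had 425 to 519 CPM. Without that library 6 of these markers rose and 2 fell in KO. Of 15 stellate cell markers, 12 rose in KO and 13 in WT, with sums of 540 to 655 CPM in HFD KO, 532 to 877 in HFD WT, 264 to 393 in chow KO and 259 to 308 in chow WT. Across all genes, 33.6% passed on diet in KO and 29.4% in WT (edgeR quasi-likelihood test, adjusted p under 0.05). Of 15 sinusoidal endothelial markers 4 fell in KO and 7 rose in WT, of 7 cholangiocyte markers 2 rose in each genotype, and of 2 adipocyte markers 1 rose in each. Without chow WT library 3 the rises in WT were 4 for endothelial and 1 for cholangiocyte markers. No tested marker of these lists was at 0 in every library, and their part in the Cyp2b and receptor levels was not tested.

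The knockout comparisons ask whether loss of miR-33 in the liver changed these genes on either diet, and no difference was called for any of the 6. On HFD, 0 of 6 passed in KO against WT (background 0.00594% of 16830 genes), and on chow 0 of 6 passed (background 0.00594%). None passed for the mean effect over both diets (0.0178%) or for the difference of the effects between diets (0%), and none of the 6 had an unadjusted p under 0.05 in any of these comparisons. Over all genes, 641 had an unadjusted p under 0.05 on HFD and 1001 on chow. The KO and WT libraries overlapped for 6 of 6 genes on each diet, where 1.24% of all genes did not overlap on HFD (0.594% higher and 0.642% lower) and 5.62% on chow (3.07% higher and 2.55% lower). DESeq2 and limma voom also called 0 of the 6 genes in each of these comparisons.

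The intervals show how large a difference could have gone uncalled. For Nr1i3 the log2 difference of KO over WT was 0.13 ± 0.13 (SE, 95% interval -0.14 to 0.39) on HFD and 0.14 ± 0.15 (-0.17 to 0.45) on chow. Nr1i2 had -0.05 ± 0.09 (-0.24 to 0.14) on HFD and 0.03 ± 0.10 (-0.18 to 0.24) on chow. Rxra had 0.04 ± 0.08 (-0.13 to 0.20) on HFD and 0.07 ± 0.09 (-0.12 to 0.26) on chow. The receptor intervals were thus narrow. Those of the Cyp2b genes were wide: Cyp2b9 had -0.06 ± 0.53 (-1.21 to 1.08) on HFD and 0.44 ± 0.68 (-1.02 to 1.91) on chow. Cyp2b13 had 0.25 ± 0.31 (-0.41 to 0.91) on HFD and -0.09 ± 1.65 (-3.63 to 3.45) on chow, where its counts were near 0. Cyp2b10 had -0.07 ± 0.71 (-1.58 to 1.44) on HFD and -0.48 ± 0.92 (-2.44 to 1.48) on chow. The edgeR adjusted p was 1 for all 6 genes on HFD and 0.937 to 0.998 on chow. Without HFD KO library 1 the Cyp2b9 difference on HFD was 0.16, of the opposite sign.

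Averaged over both diets, the log2 difference of KO over WT was 0.19 ± 0.43 (SE, 95% interval -0.74 to 1.12) for Cyp2b9, 0.08 ± 0.90 (-1.85 to 2.0) for Cyp2b13 and -0.28 ± 0.58 (-1.51 to 0.96) for Cyp2b10. For the receptors it was 0.13 ± 0.10 (-0.07 to 0.34) for Nr1i3, -0.01 ± 0.07 (-0.15 to 0.13) for Nr1i2 and 0.05 ± 0.06 (-0.07 to 0.18) for Rxra. The edgeR adjusted p was 1 for all 6. Whether the KO difference itself depended on diet was tested as HFD minus chow. That value was -0.51 ± 0.86 (-2.37 to 1.35) for Cyp2b9, 0.34 ± 1.74 (-3.39 to 4.07) for Cyp2b13 and 0.41 ± 1.16 (-2.06 to 2.88) for Cyp2b10. It was -0.01 ± 0.19 (-0.42 to 0.39) for Nr1i3, -0.08 ± 0.14 (-0.36 to 0.21) for Nr1i2 and -0.04 ± 0.12 (-0.29 to 0.22) for Rxra, and the adjusted p ran from 0.948 to 0.996. The same 6 values are the difference between KO and WT in the response to HFD, which was therefore not distinguishable between genotypes at this spread.

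**Figure D3:**
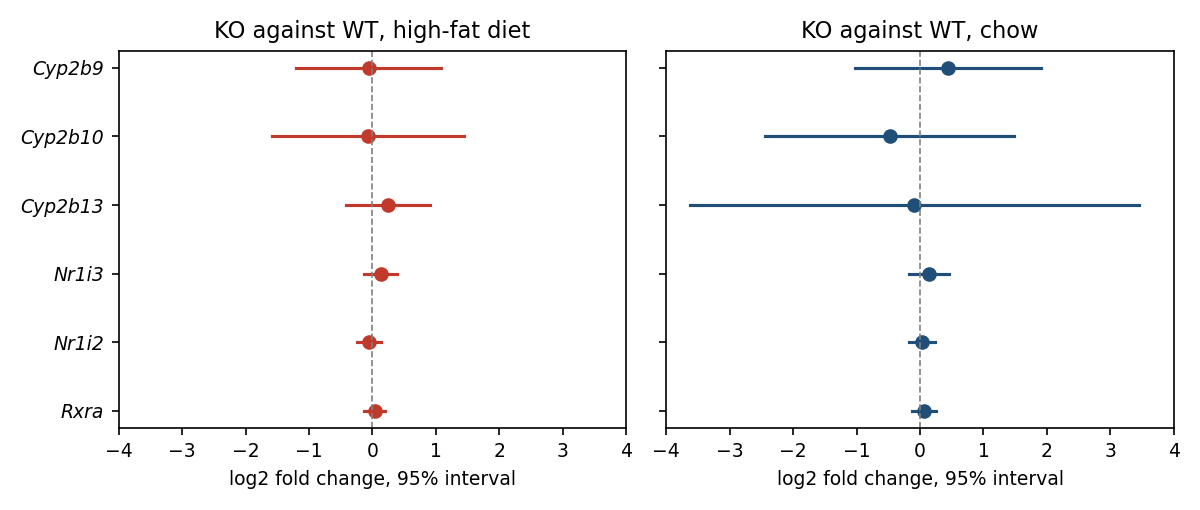
Log2 fold change of KO over WT for the 6 genes on HFD and on chow, with 95% intervals from the edgeR fit. Every interval crosses 0, and the widest is that of Cyp2b13 on chow.

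Other genes that CAR and PXR are known to induce were split between rises and falls on HFD. Of 47 tested target genes, with Cyp2b10 left out, 13 rose and 12 fell on HFD in KO, where 17.4% of all genes rose and 16.2% fell. In WT 10 rose and 10 fell, where 15.2% of all genes rose and 14.2% fell. The median log2 difference was 0.00 in KO and -0.13 in WT, beside -0.01 and -0.02 for all genes. In both genotypes 9 rose and 8 fell, where 11.2% of all genes rose and 10.2% fell in both, and 0 targets passed in opposite directions.

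The targets that rose were led by glutathione transferases. Gsta1 had 5.66, 29.8, 51.7, 43.9 and 23.9 CPM in HFD KO, 17.3, 25.6, 21.9 and 17.9 CPM in HFD WT, 0.706, 0.258, 0.283 and 0.353 CPM in chow KO, and 0.329, 0.0582 and 0.71 CPM in chow WT. All HFD libraries were above all chow libraries, with HFD KO library 1 the lowest on HFD, as for Cyp2b9. Its log2 difference was 6.27 ± 0.70 in KO (SE, edgeR adjusted p = 2.63e-05) and 5.82 ± 0.83 in WT (adjusted p = 0.000227, and 1.53e-14 to 0.0641 over the alternatives, the highest with limma voom). Without chow WT library 3 the WT value of Gsta1 was 6.61. Gstm3, of the same enzyme class, rose by 3.78 ± 0.46 in KO (adjusted p = 5.5e-05) and by 3.45 ± 0.52 in WT (adjusted p = 0.000363). Abcb1a, a drug efflux pump, had means of 20.3 ± 5.75 CPM in HFD KO, 19.3 ± 4.24 in HFD WT, 2.85 ± 1.39 in chow KO and 3.35 ± 1.02 in chow WT (SD). It rose by 2.89 ± 0.32 in KO (adjusted p = 1.05e-05) and by 2.50 ± 0.36 in WT (adjusted p = 0.000123). Also higher in both genotypes were Gadd45a, a growth arrest gene (2.30 in KO and 1.38 in WT), the acute-phase gene Orm3 (2.22 and 1.89, and 2.72 in WT without chow WT library 3) and the aldehyde dehydrogenase Aldh1b1 (2.06 and 1.93).

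The targets that fell included P450s of the Cyp2c family. Cyp2c54 had means of 29.5 ± 45.3 CPM in HFD KO, 10.3 ± 5.74 in HFD WT, 235 ± 42.1 in chow KO and 225 ± 27.3 in chow WT (SD). HFD KO library 1 held 110 CPM, and the other HFD KO libraries held 2.65 to 14.8 CPM. Its log2 difference was -3.01 ± 0.84 in KO (SE, edgeR adjusted p = 0.0159, and 3.88e-05 to 0.067 over the alternatives) and -4.44 ± 1.02 in WT (adjusted p = 0.00595). The KO value was -4.62 without HFD KO library 1, and the call was lost where only the groups compared were fitted. Cyp2c37 fell by 1.60 ± 0.36 in KO (adjusted p = 0.00433) and by 1.85 ± 0.41 in WT (adjusted p = 0.00449). Cyp2c50 fell by 1.12 in KO and 1.55 in WT, and the carboxylesterase Ces2a by 1.27 and 1.54. Cyp1a2, an aromatic amine oxidase, fell by 0.83 ± 0.29 in KO (adjusted p = 0.0425, lost in 14 of 25 alternatives) and by 1.56 ± 0.33 in WT (adjusted p = 0.00335).

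Other genes often used to read out CAR or PXR were looked up after the values had been seen. Cyp3a11, the textbook PXR target, averaged 1630 ± 346 CPM in HFD KO, 1710 ± 84.8 in HFD WT, 2010 ± 432 in chow KO and 1570 ± 477 in chow WT (SD). Its log2 difference on diet was -0.30 ± 0.19 in KO (SE, edgeR adjusted p = 0.228) and 0.13 ± 0.21 in WT (adjusted p = 0.701). Cyp2c29 had -0.60 ± 0.29 in KO (adjusted p = 0.134) and -0.84 ± 0.33 in WT (adjusted p = 0.0722, and 0.0161 to 0.166 over the alternatives). Neither gene passed in either genotype here, while Cyp2c29 passed in WT in 3 of 25 alternatives. Cyp2c55 rose by 1.87 ± 0.31 in KO (adjusted p = 0.000158) and by 1.43 ± 0.35 in WT (adjusted p = 0.00504). Por, which encodes the reductase that passes electrons to all microsomal P450s, fell by 0.82 ± 0.13 in KO (adjusted p = 0.000183) and by 0.75 ± 0.15 in WT (adjusted p = 0.00129).

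**Figure D4:**
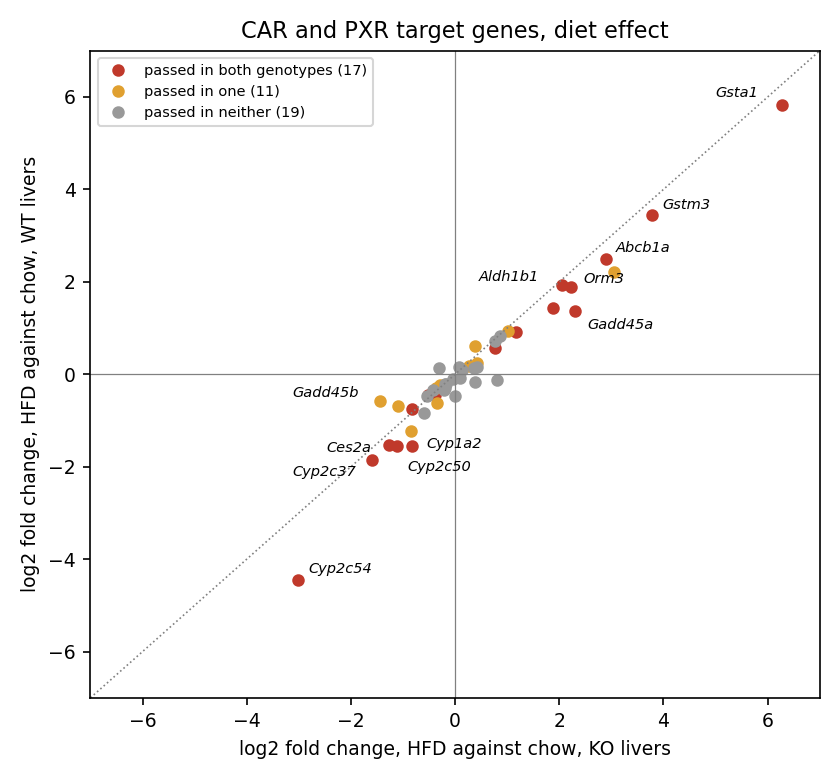
Log2 fold change of HFD over chow of the CAR and PXR target genes, with KO and WT on separate axes, coloured by whether the gene passed in both genotypes, in 1 or in neither. Of 47 genes, 9 rose and 8 fell in both genotypes, with Gsta1 and Cyp2c54 near the ends. Of all genes, 11.2% rose and 10.2% fell in both.

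In KO against WT, 0 of the 47 target genes passed on either diet, and 1 gene had an unadjusted p under 0.05 on each. On HFD, 40 of the 47 had a log2 difference above 0, with a median of 0.19 beside 0.00 for all genes, and on chow 29 did, with a median of 0.06. The mean log2 CPM over these genes was 6.27, 6.67, 6.73, 6.35 and 6.31 in HFD KO, and 6.42, 6.30, 6.31 and 6.14 in HFD WT. HFD KO libraries 2 and 3 thus lay above the HFD WT libraries, and the others lay among them. Genes of a list can vary together from library to library, so nothing is read from the count of 40. The smallest p belonged to Ces2c on HFD, with 0.89 ± 0.38 (SE, edgeR adjusted p = 1), and to Gadd45a on chow, with -0.68 ± 0.24 (adjusted p = 0.773).

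Among 39 partner genes of CAR and PXR (other nuclear receptors, coregulators and transcription factors acting with them, the 3 receptors left out), 4 rose and 15 fell on HFD in KO, and 4 rose and 10 fell in WT. Across all genes, 17.4% rose and 16.2% fell in KO, and 15.2% rose and 14.2% fell in WT. The median log2 difference of the partner genes was -0.19 in KO and -0.18 in WT, beside -0.01 and -0.02 for all genes. In WT the count of falls was 4 without HFD WT library 2 or chow WT library 2, 6 without HFD WT library 4 or chow WT library 1, and 5 without a filter on low counts. Hnf4a, a hepatocyte transcription factor gene, averaged 293 ± 23.9 CPM in HFD KO, 291 ± 30.6 in HFD WT, 578 ± 71.2 in chow KO and 536 ± 37 in chow WT (SD). It fell by 0.98 ± 0.09 in KO (SE, edgeR adjusted p = 8.06e-07) and by 0.88 ± 0.11 in WT (adjusted p = 1.19e-05), close to the difference of Nr1i3. Foxa3, a forkhead factor of hepatocytes, fell by 1.25 ± 0.16 in KO (adjusted p = 3.1e-05) and by 1.04 ± 0.18 in WT (adjusted p = 0.000547).

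Of the partner genes that rose, Srebf1, the SREBP1 gene of fatty acid synthesis, averaged 181 ± 28.7 CPM in HFD KO, 173 ± 21.8 in HFD WT, 33.6 ± 11.7 in chow KO and 45.9 ± 16.1 in chow WT (SD). It rose by 2.43 ± 0.25 in KO (SE, edgeR adjusted p = 7.71e-06) and by 1.92 ± 0.28 in WT (adjusted p = 0.000185). Pparg, the fat-storage receptor gene, rose by 0.95 in KO and 1.29 in WT, and Nfe2l2, the NRF2 gene of the antioxidant response, by 0.60 and 0.57. Ncor1, a nuclear receptor corepressor gene, fell by 0.45 ± 0.07 in KO (adjusted p = 0.000138). In WT it had -0.12 ± 0.08 (adjusted p = 0.297). Tested directly, the difference between KO and WT in the diet effect on Ncor1 was -0.33 ± 0.11 and was not called (edgeR adjusted p = 0.664). In KO against WT, 0 of the 39 passed on either diet.

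The Cyp2 gene cluster around Cyp2b9 on chromosome 7 did not share its diet difference as a whole. Of 7 tested neighbours, 2 rose and 0 fell in KO, and 1 rose and 0 fell in WT, where 17.4% of all genes rose in KO and 15.2% in WT. With only the groups compared, 1 rose in KO, and 2 rose and 1 fell in WT. In WT 2 rose with DESeq2 and 0 with limma voom. Without HFD KO library 1 or chow KO library 2, 2 rose in WT, without chow KO library 3, 1 fell there, and without chow KO library 1 or chow KO library 2, 1 rose in KO. Cyp2a4, a female-biased steroid hydroxylase, averaged 46.8 ± 32.7 CPM in HFD KO, 27.5 ± 5.47 in HFD WT, 2.31 ± 0.947 in chow KO and 1.98 ± 0.737 in chow WT (SD). HFD KO library 1 had 4.96 CPM, and the other HFD KO libraries had 37 to 95.3 CPM. Cyp2a4 rose by 4.38 ± 0.70 in KO (SE, edgeR adjusted p = 0.000436) and by 3.79 ± 0.81 in WT (adjusted p = 0.00366, and 2.8e-07 to 0.0938 over the alternatives). Cyp2a22 rose by 1.30 ± 0.40 in KO (adjusted p = 0.0225, and 0.00169 to 0.0779 over the alternatives) and had 1.16 ± 0.45 in WT (adjusted p = 0.0671, and 0.000682 to 0.184 over the alternatives, of which it passed in 4 of 25). The other neighbours did not pass. Their log2 differences in KO and in WT were 0.10 and -0.08 for Cyp2a5, 0.04 and -0.09 for Cyp2a12, 0.04 and -0.36 for Cyp2f2, -0.28 and -1.33 for Cyp2g1, and -0.59 and 0.97 for Cyp2s1. Cyp2a4 and Cyp2a5 are near-identical copies, so reads could be split between them.

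Since Cyp2b9 and Cyp2b13 are known as female-biased, sex was looked at in the counts. Xist, the RNA that silences the female X chromosome, had 0 to 16 estimated counts in every library. The Y-linked gene Ddx3y had 58.6 to 81.2 CPM in HFD KO, 62.9 to 81.7 in HFD WT, 44.1 to 70.3 in chow KO and 46.4 to 64.5 in chow WT. Xist was thus near absent and Ddx3y was present in all 16 libraries. Their part in the Cyp2b levels was not tested.

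Of 30 other female-biased liver genes tested, 10 rose and 6 fell on HFD in KO, and 9 rose and 6 fell in WT. Of all genes, 17.4% rose and 16.2% fell in KO, and 15.2% rose and 14.2% fell in WT. With only the groups compared, 3 of the female-biased genes fell in WT. In both genotypes 9 rose and 5 fell, where 11.2% of all genes rose and 10.2% fell in both. Hao2, a peroxisomal hydroxyacid oxidase, averaged 6.22 ± 3.14 CPM in HFD KO, 6.57 ± 1.90 in HFD WT, 0.200 ± 0.0803 in chow KO and 0.149 ± 0.156 in chow WT (SD). It rose by 4.91 ± 0.55 in KO (SE, edgeR adjusted p = 8.54e-06) and by 5.31 ± 0.67 in WT (adjusted p = 3.14e-05), and by 6.68 in WT without chow WT library 1. Hao2 had 1.68 CPM in HFD KO library 1, and the other HFD KO libraries had 4.74 to 9.87 CPM. The transporter Slc22a27 rose by 3.89 in KO and 3.83 in WT, the neurotrophin receptor Ntrk2 by 3.01 (3.66 without chow KO library 4) and 2.55, and Hamp2, a hepcidin paralog, by 3.61 and 3.19. Other female-biased genes fell, among them Cyp4a14, a fatty acid hydroxylase. Cyp4a14 averaged 327 ± 155 CPM in HFD KO, 387 ± 75.3 in HFD WT, 6250 ± 1540 in chow KO and 4190 ± 801 in chow WT (SD). It had 124 CPM in HFD KO library 1, and the other HFD KO libraries had 199 to 468 CPM. Cyp4a14 fell by 4.26 ± 0.37 in KO (adjusted p = 3.04e-06) and by 3.44 ± 0.40 in WT (adjusted p = 4.29e-05). Also lower on HFD were Cyp2c69 (-4.54 in KO and -6.90 in WT), Cyp2c40 (-1.88 and -2.70) and Cyp2c68 (-0.88 and -0.96). Over the alternatives Cyp2c69 had -5.33 to -3.54 in KO and -7.50 to -4.65 in WT, and Cyp2c40 had -3.15 to -0.99 in WT.

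Of 37 male-biased genes tested, 6 rose and 7 fell in KO, and 0 rose and 17 fell in WT, and 7 fell in both. Beside this, 17.4% of all genes rose and 16.2% fell in KO, 15.2% rose and 14.2% fell in WT, and 10.2% fell in both. The median log2 difference of the male-biased genes was -0.38 in KO and -1.08 in WT, beside -0.01 and -0.02 for all genes. Without HFD KO library 1, 3 rose and 20 fell in KO. Without chow KO library 1 or chow KO library 2, 3 rose, and with limma voom 3 rose and 15 fell in KO. In WT the count of falls was 8 without chow WT library 2, 9 without HFD WT library 2 and 11 without HFD WT library 4. Elovl3, a fatty acid elongase, fell by 3.20 ± 0.42 in KO (SE, edgeR adjusted p = 9.83e-05) and by 3.10 ± 0.47 in WT (adjusted p = 0.000384). Among the genes that rose in KO were Mup20 (1.07 to 1.54 over the alternatives) and Serpina12 (1.54 to 1.98). Both passed in KO in 25 of 25 alternatives, while in WT Mup20 passed in 0 of 25 and Serpina12 in 3 of 25. Hsd3b5, a steroid dehydrogenase, held 74.0 CPM in HFD KO library 1 and 0.0349 to 0.516 CPM in the other HFD KO libraries. Its log2 difference was -0.83 ± 1.38 in KO (adjusted p = 0.684), and -6.62 (adjusted p = 0.000106) without HFD KO library 1. In WT it was -8.38 ± 2.59 (adjusted p = 0.0288, and 1.55e-05 to 0.0833 over the alternatives, of which it passed in 19 of 25). Among the settings that lost the call were limma voom (-8.25) and leaving out HFD WT library 1 (-9.44) or chow WT library 2 (-7.37).

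HFD KO library 1 had the lowest Cyp2b9 and Cyp2b13 levels of its group, 63.1 and 17.3 CPM, and the highest Rxra level, 598 CPM. Its mean log2 CPM over the female-biased genes was 1.90, where the other HFD KO libraries had 3.10 to 3.28, the HFD WT libraries 2.93 to 3.09, the chow KO libraries 2.39 to 2.84 and the chow WT libraries 2.41 to 2.77. Over the male-biased genes it had 6.98, where the other HFD KO libraries had 3.65 to 5.25, the HFD WT libraries 4.23 to 4.92, the chow KO libraries 5.86 to 6.02 and the chow WT libraries 5.95 to 6.80. It was thus below all other libraries in the female-biased mean and above all in the male-biased mean, yet its Cyp2b9 level was above every chow library. Without it, the log2 difference of HFD over chow in KO was 4.10 for Cyp2b9, 8.56 for Cyp2b13, 0.95 for Cyp2b10, -1.12 for Nr1i3, -0.22 for Nr1i2 and -0.64 for Rxra. In KO against WT on HFD, 36 of the 37 male-biased genes had a log2 difference above 0 (median 0.62, beside 0.00 for all genes) and 0 passed. On chow 5 of 37 were above 0 (median -0.25, beside 0.00 for all genes) and 0 passed. Genes of a list can vary together from library to library, so nothing is read from these counts. The HFD count includes HFD KO library 1, and the chow count includes chow WT library 2. The male-biased mean was 6.80 in chow WT library 2, 6.08 in chow WT library 1 and 5.95 in chow WT library 3. The part of these libraries in the 2 counts was not tested.

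**Figure D5:**
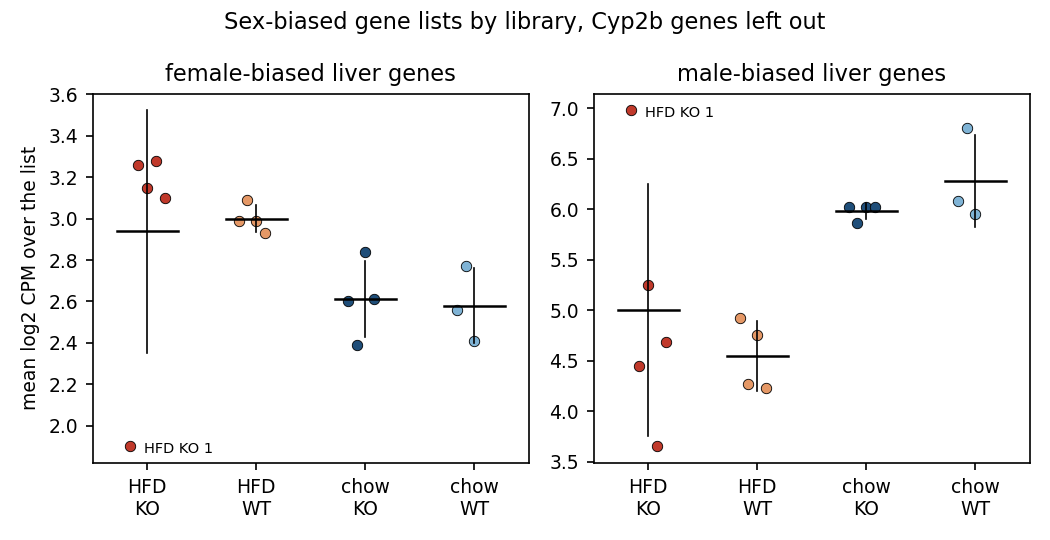
Mean log2 CPM of the female-biased and male-biased liver genes in each of the 16 libraries, by diet and genotype, with Cyp2b9 and Cyp2b13 left out. HFD KO library 1 lies at 1.90 for the female-biased and 6.98 for the male-biased genes, apart from the rest of its group.

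The genes whose levels ran most like those of the Cyp2b genes were ranked by Pearson's r of log2 CPM over the 16 libraries, among 13438 genes with a mean of at least 1 CPM. All points share the diet groups, so the values are a description. Cyp2b9 ran closest with Gm3776 (r = 0.970), the apoptosis inhibitor gene Birc3 (0.966), the cell cycle kinase gene Wee1 (0.963), the phospholipid acyltransferase gene Lpcat3 (0.963) and the chromatin assembly gene Chaf1a (0.959). Cyp2b13 ran closest with the desmosomal cadherin gene Dsg1c (0.985), Arglu1 (0.980), the macrophage elastase gene Mmp12 (0.979), Rere (0.978) and the liver glycogen phosphorylase gene Pygl (0.977). Cyp2b10, with no such split by diet, reached at most 0.851, with Spata2. For deviations from the group means, which leave out diet and genotype, the highest values were 0.904 with Dctn4 for Cyp2b9, 0.885 with the apolipoprotein gene Apoa5 for Cyp2b13 and 0.898 with Spata2 for Cyp2b10. Each of these is the highest of 13438 values over 16 libraries, so nothing is read from its size. The few top genes listed for Cyp2b9 and for Cyp2b13 had none in common. Between Cyp2b9 and Cyp2b13 themselves r was 0.94, and 0.48 for the deviations.

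The miRNA deleted in the knockout livers, miR-33-5p, is encoded in an intron of Srebf2 on chromosome 15, and its mature sequence is shown to set its seed against the 3′ UTRs of the 6 genes. It lies at chr15:82198127-82198147 on the plus strand of GRCm38.p6 (RefSeq), with seed bases 2 to 8 in capitals.
miR-33-5p: gUGCAUUGuaguugcauugca
Its 7-base seed match CAATGCA was in none of the longest annotated 3′ UTRs of the 6 genes, which are 377 bases long in Cyp2b9, 376 in Cyp2b13, 375 in Cyp2b10, 1983 in Nr1i3, 922 in Nr1i2 and 3269 in Rxra. Nr1i3 and Rxra each held 1 match of 6 bases. Over 15115 genes of the table with an annotated 3′ UTR, 1126 (7.45%) held the 7-base match.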

How the data were processed

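The deposited table holds estimated counts per gene, 1 column per library, for 16 liver libraries, and the labels give each library's diet and genotype. Per the labels' protocols, a Ribo-Zero kit removed ribosomal RNA. Per the submitters' processing notes, reads were handled with TopHat2 and Cuffdiff on mm10. Not given in the sources used here are tool versions, the counting step and its strand setting. The name of the deposited table speaks of both gene counts and FPKM. Its values were treated as estimated counts, since columns summed to 15888436 to 29469645 and exactly whole values (tolerance 0) made up 32.8 to 37.9% of each. No gene's total was under 10. The labels give both 45 cycles and 75-base reads, and the read length is in doubt.

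After rounding of the estimated counts to whole numbers, genes were kept by filterByExpr of edgeR 4.0.16, which left 16830 of 23258, and TMM scaling was used for CPM. A robust quasi-likelihood model in R 4.3.3 had a term for each of the 4 groups, with 12 degrees of freedom left over 16 libraries. Two-sided p-values were adjusted by Benjamini-Hochberg over the 16830 genes, and calls used 0.05. The SE of a log2 fold change came from its size and the F statistic (log2 fold change over root F). For log2 CPM the prior count was 2. The fit was tested on simulated counts. A ribosomal RNA gene took 0.637 to 14.6% of a library's counts, and leaving it out was among the alternatives. The others were RLE scaling, no filter and a stricter filter, DESeq2 1.42.0, limma 3.58.1 with voom, only the groups compared, each library left out, HFD KO library 1 and chow WT library 3 both left out, and the Cyp2b genes summed.

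The members, the gene lists (CAR and PXR targets and partners, the Cyp2 cluster, female-biased and male-biased genes, sex-chromosome genes and cell type markers) and the rule for naming genes were chosen with earlier results of these data known. The rule took, per list and diet comparison, up to 5 rises and 5 falls that passed, reached 1 CPM on average in the higher group and showed no overlap, and per knockout comparison the 2 smallest p. Promoter and miRNA sequences come from RefSeq tables on GRCm38.p6, and gene models from GENCODE M21, with alignment by biopython 1.88. Replicate numbers follow accession order and pair nothing.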

Additional observations from a re-analysis of the deposited data

Results flagged for a closer look

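Among 81 sets of values tested by Dixon's ratio, 7 had a library far from the rest of its group. None of the 18 sets of Cyp2b and receptor values did. Chow WT, with 3 libraries, was left out of these tests, so its libraries could not be flagged. Chance marks about 1 in 20 sets. In HFD KO library 1, Cyp2c54 had 110 CPM, where the other HFD KO libraries had 2.65 to 14.8. Hsd3b5 had 74.0 CPM in the same library, where the others had 0.0349 to 0.516. Its mean log2 CPM over the female-biased genes was 1.90, where the others had 3.10 to 3.28. In HFD WT library 2, Gstm3 had 142 CPM, where the other HFD WT libraries had 79.2 to 81.5. In HFD WT library 1, Cyp4a14 had 499 CPM, where the others had 336 to 360. In chow KO library 3, Por had 525 CPM, where the other chow KO libraries had 397 to 411. In chow KO library 2, the mean log2 CPM over the male-biased genes was 5.86, where the others each had 6.02.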

How the results depend on the processing

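No paired analysis was possible because the replicate numbers only follow accession order. In KO against WT, none of the 6 genes passed under any alternative, and the smallest adjusted p was 0.653. Directions of these uncalled differences turned as follows. With HFD KO library 1 and chow WT library 3 both left out, the log2 difference on HFD was 0.16 for Cyp2b9 and -0.03 for Rxra, that on chow was 1.77 for Cyp2b13, and the difference between diets was -1.35 for Cyp2b13 and 0.00 for Nr1i3. With limma voom, Cyp2b13 had 0.16 on chow and -0.05 for the difference between diets. Summing the Cyp2b genes, which leaves 1 value for all of them, gave -0.02 on HFD, 0.37 on chow, 0.18 for the mean and -0.39 for the difference between diets, against opposite signs of Cyp2b13 or Cyp2b10 alone. The sum's diet value was 4.03 in KO and 4.42 in WT, and by construction follows Cyp2b9. Cyp2b13 in WT had 9.91 with both libraries left out. The cause of the other turns was not tested.

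Leaving out 1 library at a time, the differences on HFD ranged from -0.20 to 0.16 for Cyp2b9, -0.66 to 0.58 for Cyp2b10, -0.03 to 0.42 for Cyp2b13, -0.12 to 0.01 for Nr1i2 and -0.03 to 0.07 for Rxra. On chow they ranged from -0.01 to 0.96 for Cyp2b9, -1.27 to -0.06 for Cyp2b10, -0.93 to 1.78 for Cyp2b13 and -0.03 to 0.10 for Nr1i2. The mean effect ranged from -0.04 to 0.45 for Cyp2b9, -0.67 to 0.05 for Cyp2b10, -0.34 to 1.01 for Cyp2b13 and -0.04 to 0.02 for Nr1i2. The difference between diets ranged from -0.19 to 1.2 for Cyp2b10, -1.53 to 1.18 for Cyp2b13, -0.14 to 0.09 for Nr1i3 and -0.10 to 0.00 for Rxra. Diet values ranged from 0.3 to 1.69 for Cyp2b10 in KO and -0.16 to 0.90 in WT, from 8.09 to 9.21 for Cyp2b13 in KO and from 7.51 to 9.90 for Cyp2b13 in WT. They ranged from -0.10 to 0.30 for Cyp3a11 in WT and from -0.90 to 0.14 for Gadd45b in WT. Those of Cyp2b9, Nr1i3 and Rxra kept their direction, at 3.5 to 4.31 in KO and 3.96 to 4.89 in WT for Cyp2b9, -1.15 to -1.03 and -1.18 to -0.95 for Nr1i3, and -0.64 to -0.56 and -0.60 to -0.52 for Rxra.

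Over all genes, 1 passed on HFD, and 8 did with DESeq2, 4 with only the groups compared, 3 with no filter or a stricter one and 2 with limma voom. On chow 1 passed, 2 with DESeq2 and 0 with limma voom or only the groups compared. The mean effect had 3, 5 with DESeq2 and 1 with limma voom, and the difference between diets 0 and 13 with DESeq2. Leaving out 1 library at a time gave 1 to 4 on HFD, 0 to 3 on chow, 2 to 5 for the mean and 0 to 4 for the difference. The stricter filter left Cyp2b10 out, and only the groups compared gives no mean or difference. Few counts limit Cyp2b10 everywhere and Cyp2b13 on chow.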
